A study of Homo sapiens with 12 samples.

Results

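The core spliceosome genes were 38 protein-coding genes whose products form the spliceosome, the set of small nuclear ribonucleoproteins (snRNPs) and partner proteins that removes introns from pre-mRNA. They were listed by symbol as known parts of the particles, not by a measured value of each gene, though the list was drawn up with earlier results of these data known. All 38 were found among the 36675 genes listed for either of 2 human melanoma cell lines, A375 and CHL1. The 38 comprised 7 Sm genes, 3 genes of U1, 10 of U2 and its recruitment, 7 LSm genes, 3 of U4/U6, 6 of U5 and 2 of the PRP19 complex. The lines were compared with a derivative of each, A375AR991 and CHL1AR991, selected in rising concentrations of palbociclib, an inhibitor of the cell cycle kinases CDK4 and CDK6. Selection lasted 7 months for A375AR991 and 3 months for CHL1AR991, and both derivatives were then kept in 4 µM palbociclib. The parental cells had no treatment, and the cells of all 4 groups spent their last 72 h in medium without the drug before total RNA was taken. RNA was sequenced in 3 libraries per group, 12 in all, and each resistant line stands for a single derivative, so that resistance and the history of that derivative cannot be told apart. The labels do not say whether the 3 libraries came from separate cultures, and the p-values rest on the spread among them alone, which may be technical.

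The snRNPs are built on the small nuclear RNAs U1, U2, U4, U5 and U6. A ring of 7 Sm proteins sits on U1, U2, U4 and U5, and a ring of 7 LSm proteins sits on the end of U6. U1 binds the 5′ splice site and U2 the branch point, the U4/U6.U5 tri-snRNP then joins, and the PRP19 complex enters as the catalytic centre forms. The arginine methyltransferase PRMT5, with its partners WDR77 and CLNS1A, methylates arginines beside glycines in the tails of SNRPB, SNRPD1 and SNRPD3, and of LSM4. Methylation helps the Sm proteins load onto the small nuclear RNAs.

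Coding stretches of 3 of these substrates are shown first, since the results return to these 4 genes. In coding sequences of GENCODE 29, a cluster of at least 5 arginine codons each directly followed by a glycine codon, within 30 codons, was present in 3 of the 38 genes (7.89%), against 103 of 19497 protein-coding genes (0.528%). The 3 were SNRPD1, SNRPD3 and LSM4. The stretches below are given 5′ to 3′ in frame, with each arginine-glycine codon pair in capitals.

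SNRPD1, codons 98 to 115 of 119: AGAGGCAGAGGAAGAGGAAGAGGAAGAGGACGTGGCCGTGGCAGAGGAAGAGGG

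SNRPD3, codons 97 to 119 of 126: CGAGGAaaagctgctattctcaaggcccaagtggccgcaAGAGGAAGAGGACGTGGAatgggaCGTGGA

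LSM4, codons 88 to 118 of 139: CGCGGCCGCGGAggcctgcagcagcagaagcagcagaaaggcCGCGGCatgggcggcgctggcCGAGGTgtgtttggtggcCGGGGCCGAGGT

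The SNRPD1 stretch is an unbroken run of 9 such pairs, of 10 in the whole coding sequence. SNRPD3 holds 5 pairs in its stretch and 7 in all, and LSM4 holds 6 and 8, with glutamine and glycine codons between them. SNRPB has 8 pairs in 240 codons but no more than 2 within 30 codons, and no stretch of it is printed. SNRNP70, not among the 4 substrates named above, has 8 pairs in 437 codons, with up to 4 within 30 codons.

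Libraries held 25398920 to 29812686 counts, and the 38 genes together took 0.806 to 0.815% of them in parental and 0.87 to 0.895% in resistant A375, 0.63 to 0.642% in parental and 0.622 to 0.629% in resistant CHL1. Levels below are normalised CPM, read counts scaled by library size and TMM factor within the line. Only the levels per kilobase were scaled over all 12 libraries together. The summed level of 8 melanocyte markers was 431 to 587 CPM in parental and 266 to 409 CPM in resistant A375 (3 and 4 of 8 with a mean of at least 1 CPM), and 1080 to 1320 and 1120 to 1300 CPM in CHL1 (6 and 5 of 8). Most of it was the melanocyte factor SOX10, while PMEL and MLANA had means of at most 1.03 CPM in any group. In CHL1 the melanocyte genes DCT (-1.22) and S100B (0.68) moved in opposite directions on the log2 scale, and in A375 TYRP1 rose from 0.219 to 1.81 CPM. The melanocyte factor MITF fell in both lines, from 48.0 to 34.4 CPM in A375 (-0.48) and from 32.2 to 24.8 CPM in CHL1 (-0.38). The 6 fibroblast markers summed to 20.1 to 25.3 CPM in parental and 43.2 to 53.8 CPM in resistant A375 (4 of 6 at that level in each), and to 16.5 to 22.1 and 11.1 to 13.6 CPM in CHL1 (3 of 6). By the test described below, 3 of the 6 rose in A375, among them COL1A2 (0.399 to 14.5 CPM) and LUM (7.035 to 21.0 CPM). PDGFRB alone fell by that test (8.41 to 3.76 CPM). Keratinocyte and epithelial markers summed to 80.0 to 97.5 CPM in parental and 66.9 to 73.0 CPM in resistant A375 (2 of 6), mostly KRT10 (62.5 and 65.3 CPM) and KRT14, which fell from 23.3 to 4.55 CPM, and to 11.9 to 12.9 and 10.9 to 13.5 CPM in CHL1 (2 of 6). EPCAM had means of at most 0.443 CPM. Leukocyte markers summed to 57.3 to 83.0 and 57.1 to 75.7 CPM in A375 (2 of 6), mostly CD68 (61.3 and 64.4 CPM), with LYZ falling from 6.495 to 2.602 CPM and PTPRC at 0.245 and 0.190 CPM, and to 10.6 to 11.6 and 10.3 to 11.2 CPM in CHL1 (2 of 6), mostly PTPRC (9.20 and 8.88 CPM). Endothelial markers summed to at most 15.4 CPM in A375 and 2.56 CPM in CHL1 (1 of 5). The part of these levels in the results was not tested.

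The first comparison asked which of the 38 mRNAs differed between resistant and parental cells of each line. In A375, 6 genes rose (SNRPD2, SNRPB2, SF3B3, PRPF3, PRPF31 and EFTUD2) and LSM4 fell, all by less than 2-fold. In CHL1, LSM4 rose and 4 genes fell (SF3A3, U2AF2, PRPF4 and PRPF19), again by less than 2-fold. SNRPB, SNRPD1 and SNRPD3 passed the test in neither line. LSM4 was the only one of the 38 called in both lines, and its direction was opposite. Called here means that edgeR's quasi-likelihood test gave an adjusted p (Benjamini-Hochberg, over all genes) below 0.05.

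Set against all genes tested, the 38 were called no more often than the background. In A375, 7 of 38 (18.4%) were called, against 28.3% of all genes, with 6 higher (15.8%, against 13.4%) and 1 lower (2.63%, against 14.8%). No member was called at 2-fold or more, against 7.35% of all genes. In CHL1, 5 of 38 (13.2%) were called, against 21.2%, with 1 higher (2.63%, against 9.11%) and 4 lower (10.5%, against 12.1%), and none at 2-fold, against 1.72%. Calls in both lines covered 1 of 38, against 7.72% of the genes tested in both, and calls in opposite directions likewise 1, against 3.64%. Since all 38 genes had at least 10 CPM in a group, the shares called among genes of that level may be set beside theirs: 31.6% in A375 (13.8% higher, 17.8% lower) and 27.3% in CHL1 (12.1% higher, 15.2% lower).

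The median log2 fold change (resistant over parental) of the 38 was 0.08 in A375, with a range of -0.35 to 0.56, and -0.05 in CHL1, with a range of -0.26 to 0.23. Over all genes tested the medians were -0.0008 and 0.00008. In A375, 30 of 38 values lay above 0 (78.9%, against 49.9% of all genes), and in CHL1 13 of 38 (34.2%, against 50.0%). The libraries of the groups did not overlap for 17 members in A375 (44.7%, against 42.8%), 16 of them higher in resistant cells (42.1%, against 20.9%) and 1 lower (2.63%, against 21.9%). In CHL1 the groups did not overlap for 20 members (52.6%, against 36.9%), 14 of them lower (36.8%, against 19.4%) and 6 higher (15.8%, against 17.4%). The quartiles of the 38 were 0.03 and 0.15 in A375 and -0.11 and 0.02 in CHL1, and no p is given for them as a set.

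Summed over the 38 genes, the level was 8164 CPM in parental and 8790 CPM in resistant A375, a difference of 626 CPM to which SNRPB2 gave 108, SNRPD2 103, SF3B3 76.6 and EFTUD2 42.4 CPM, while LSM4 took away 41.0 CPM. In CHL1 the sum was 6389 CPM in parental and 6218 CPM in resistant cells. PRPF19 fell by 64.5 CPM, U2AF2 by 34.6 CPM and SF3B1 by 32.0 CPM, while SF3B2 added 30.2 CPM and LSM4 28.7 CPM. Fewer cells with a given transcript and less of it per cell cannot be told apart in RNA from whole cultures.

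**Figure D1:**
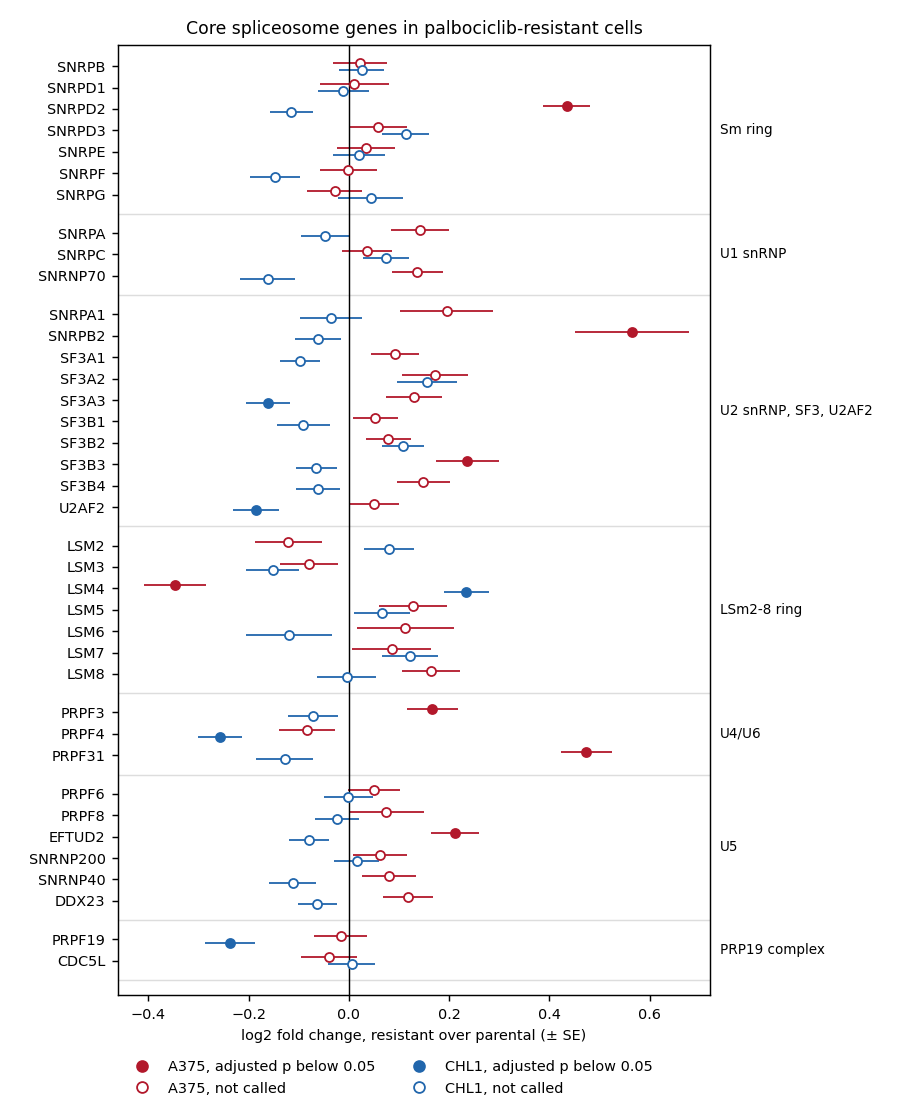
Log2 fold change ± SE (horizontal axis, resistant over parental, SE derived from the test) of each of the 38 genes (rows, grouped by particle) in A375 (red) and CHL1 (blue), with filled points for adjusted p below 0.05. Most red points lie to the right of 0 (30 of 38) and most blue points to the left (25 of 38 not above 0), and LSM4 has filled points on opposite sides.

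Among the 7 Sm genes, which form the ring common to U1, U2, U4 and U5, SNRPD2 rose in A375 and none was called in CHL1. SNRPD2 stood at 287, 305 and 291 CPM in the parental and 407, 395 and 392 CPM in the resistant A375 libraries. Every resistant library lay above every parental one. The log2 fold change was 0.43 ± 0.05 (SE, n = 3 per group; edgeR adjusted p = 0.000247). In CHL1, SNRPD2 stood at 127, 121 and 129 CPM in parental and 115, 117 and 117 CPM in resistant libraries. The resistant libraries were the lower ones there, but the value of -0.11 ± 0.04 was not called (edgeR adjusted p = 0.0826).

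The 3 Sm genes whose products PRMT5 methylates passed no test in either line. SNRPB, which codes for SmB/B′, stood at 435, 459 and 447 CPM in parental and 481, 444 and 436 CPM in resistant A375. In CHL1 it stood at 252, 234 and 243 CPM and at 244, 259 and 240.1 CPM. The groups overlapped in both lines, with log2 fold changes of 0.02 ± 0.05 and 0.03 ± 0.05 (edgeR adjusted p = 0.797 and 0.754). SNRPD1, with the longest run of arginine-glycine codons shown above, stood at 109, 128 and 121 CPM in parental and 119, 126 and 116 CPM in resistant A375. In CHL1 its values were 103, 100.3 and 98.5 CPM and then 107, 96.5 and 96.5 CPM. Again the groups overlapped in both lines, with log2 fold changes of 0.01 ± 0.07 and -0.01 ± 0.05 (edgeR adjusted p = 0.926 and 0.913).

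SNRPD3 stood at 111, 126 and 118 CPM in parental and 121, 126 and 123 CPM in resistant A375, with overlap between the groups. In CHL1 it stood at 139, 139 and 127 CPM in parental and 149.7, 145 and 144 CPM in resistant libraries, which were all higher. The log2 fold changes were 0.06 ± 0.06 and 0.11 ± 0.05 (edgeR adjusted p = 0.51 and 0.111). Other genes overlap 24.6% of the exon bases of SNRPD3 and a smaller share of those of SNRPB, and how reads there were counted was not examined. SNRPE, SNRPF and SNRPG, the other 3 ring subunits, ranged from -0.03 to 0.03 on the log2 scale in A375 and from -0.15 to 0.04 in CHL1, and none was called. SNRPG is uncertain, because 6 listed pseudogene copies held counts equal to 60.8% of its own in A375 and 64.9% in CHL1.

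None of the 3 U1 genes was called in either line. SNRNP70, the U1 protein that helps hold the particle at the 5′ splice site, stood at 245, 257 and 256 CPM in parental and 266, 289 and 277 CPM in resistant A375. In CHL1 it stood at 216, 207 and 222 CPM in parental and 189, 208 and 179 CPM in resistant cells. All resistant A375 libraries were the higher ones, while in CHL1 the groups overlapped at a single library each. The log2 fold changes were 0.14 ± 0.05 and -0.16 ± 0.05 (edgeR adjusted p = 0.0802 and 0.0553). SNRPA, which binds a stem-loop of U1 RNA, had 0.14 and -0.05, and SNRPC, which stabilises U1 pairing at the 5′ splice site, had 0.04 and 0.07, with no call.

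The products of the 10 U2 genes recognise the branch point and the pyrimidine tract before the 3′ splice site. All 10 had log2 fold changes above 0 in A375 (median 0.14), of which SNRPB2 and SF3B3 were called. In CHL1, 8 of the 10 had values below 0 (median -0.06), of which SF3A3 and U2AF2 were called. SNRPB2, the U2 B″ protein that binds a loop of U2 RNA, stood at 217, 255 and 202 CPM in parental and 364, 279 and 354 CPM in resistant A375. Both groups spread widely, but the lowest resistant library lay above the highest parental one. Its log2 fold change of 0.56 ± 0.11 (edgeR adjusted p = 0.00583) was the largest of the 38 in either line.

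In CHL1, SNRPB2 stood at 67.4, 66.9 and 66.6 CPM in parental and 65.5, 62.5 and 64.6 CPM in resistant cells. The resistant libraries were slightly lower and tightly grouped, with a log2 fold change of -0.06 ± 0.05 that was not called (edgeR adjusted p = 0.4). SF3B3, a scaffold of the SF3b complex around the branch point, stood at 451, 406 and 436 CPM in parental and 545, 484 and 493 CPM in resistant A375, without overlap. Its log2 fold change was 0.24 ± 0.06 (edgeR adjusted p = 0.0215). That call was lost without parental replicate 2 (adjusted p = 0.0619), parental replicate 3 (0.0546) or resistant replicate 1 (0.0816). In CHL1 the SF3B3 levels were 189, 199 and 193 CPM and then 184, 182 and 189.7 CPM, with overlap and a value of -0.06 ± 0.04 (edgeR adjusted p = 0.303).

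SF3A3, a subunit of the SF3a complex that links SF3b to U2, stood at 155, 156 and 145 CPM in parental and 139, 133 and 136 CPM in resistant CHL1. Every resistant library was lower, with a log2 fold change of -0.16 ± 0.04 (edgeR adjusted p = 0.0209). The call was lost without parental replicate 1 (adjusted p = 0.103), parental replicate 2 (0.0836), resistant replicate 2 (0.0745) or resistant replicate 3 (0.078). In A375 SF3A3 stood at 261, 290.2 and 276 CPM in parental and 292, 312 and 301 CPM in resistant cells, all resistant libraries higher by a margin that was not called (0.13 ± 0.06, edgeR adjusted p = 0.116). U2AF2, which binds the pyrimidine tract before U2 arrives, stood at 281, 279 and 300.5 CPM in parental and 249, 263 and 245 CPM in resistant CHL1. The groups did not overlap, and the log2 fold change was -0.19 ± 0.05 (edgeR adjusted p = 0.0132), lost without parental replicate 3 (adjusted p = 0.0649) or resistant replicate 3 (0.08).

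In A375, U2AF2 stood at 481, 515 and 527 CPM in parental and 524, 527 and 527 CPM in resistant cells, with overlap at the upper end and a value of 0.05 ± 0.05 (edgeR adjusted p = 0.496). SF3A1, another SF3a subunit, stood at 282, 269 and 275 CPM in parental and 304, 289 and 288 CPM in resistant A375. In CHL1 its levels were 171, 179 and 179 CPM and then 164, 166 and 164 CPM. Neither SF3A1 value was called (0.09 ± 0.05 and -0.10 ± 0.04; edgeR adjusted p = 0.193 and 0.106), though the groups did not overlap in either line. SF3B4, an SF3b subunit, stood at 245, 269 and 267 CPM in parental and 293, 289.7 and 282 CPM in resistant A375. In CHL1 it stood at 119.6, 115 and 125 CPM and then at 116, 114 and 115 CPM.

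SF3B4 was higher in every resistant A375 library and overlapped in CHL1, with uncalled values of 0.15 ± 0.05 and -0.06 ± 0.04 (edgeR adjusted p = 0.0672 and 0.374). The remaining U2 genes had no call in either line. SF3B1, the subunit that clamps the branch point adenosine, had 0.05 in A375 and -0.09 in CHL1. SF3B2 had 0.08 and 0.11, SF3A2 had 0.17 and 0.16, and SNRPA1, the partner of SNRPB2, had 0.19 and -0.04. In A375 the value of SNRPB2 was thus 0.56 and that of its binding partner 0.19 on the log2 scale, and the difference between the genes was not tested.

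The 7 LSm genes encode the ring on U6, and LSM2 to LSM7 also serve the cytoplasmic ring that starts mRNA decay. LSM4, one of the PRMT5 substrates, stood at 176, 204 and 195 CPM in parental and 151, 152 and 150.0 CPM in resistant A375. Every resistant library was lower, and the 3 differed by little among themselves. The log2 fold change was -0.35 ± 0.06 (edgeR adjusted p = 0.00307). In CHL1, LSM4 stood at 166, 159 and 166 CPM in parental and 188, 202 and 187 CPM in resistant libraries. Here every resistant library was higher, and the log2 fold change was 0.23 ± 0.04 (edgeR adjusted p = 0.00305).

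Both LSM4 calls held in all 12 alternative settings of their line, with adjusted p of at most 0.0182 in A375 and 0.0215 in CHL1. The other 6 LSm genes were not called in either line. Their log2 fold changes ran from -0.12 (LSM2) to 0.16 (LSM8, the subunit that marks the nuclear ring) in A375 and from -0.15 (LSM3) to 0.12 (LSM7) in CHL1. LSM8 stood higher in every resistant library of A375 without a call (edgeR adjusted p = 0.0643).

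The products of the 3 U4/U6 genes hold U4 and U6 RNA together until the spliceosome is activated. In A375, PRPF31 and PRPF3 rose, and in CHL1, PRPF4 fell. PRPF31, which clamps U4 RNA and is mutated in an inherited retinal degeneration, stood at 90.8, 96.3 and 94.4 CPM in parental and 131, 133 and 127 CPM in resistant A375. The groups lay far apart, with a log2 fold change of 0.47 ± 0.05 (edgeR adjusted p = 0.000247). In CHL1 PRPF31 stood at 46.1, 43.1 and 44.9 CPM in parental and 41.8, 42.4 and 38.5 CPM in resistant cells, lower in all 3 but not called (-0.13 ± 0.06, edgeR adjusted p = 0.143). Genes on the opposite strand overlap 32.0% of its exon bases, and the libraries do not mark the strand.

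TFPT, the named one of these opposite genes, stood at 33.2 ± 2.84 CPM in parental and 46.7 ± 3.98 CPM in resistant A375 (SD, n = 3; log2 fold change 0.49, edgeR adjusted p = 0.003). Reads of PRPF31 and TFPT cannot be told apart where the genes overlap. PRPF3 stood at 93.1, 92.6 and 93.5 CPM in parental and 101, 104 and 108 CPM in resistant A375. The parental libraries lay close together and below all resistant ones, with a log2 fold change of 0.17 ± 0.05 (edgeR adjusted p = 0.0374). That call was that with the highest adjusted p of the 7, and leaving out any 1 of the 6 A375 libraries ended it, with adjusted p from 0.0558 to 0.134. In CHL1 PRPF3 stood at 74.4, 80.0 and 73.6 CPM and then at 71.8, 71.8 and 73.5 CPM, a value of -0.07 ± 0.05 (edgeR adjusted p = 0.357).

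PRPF4, the partner of PRPF3 on the U4/U6 duplex, stood at 96.9, 95.0 and 94.6 CPM in parental and 78.2, 80.9 and 80.6 CPM in resistant CHL1. The groups were tight and apart, and the log2 fold change of -0.26 ± 0.04 (edgeR adjusted p = 0.00149) was the lowest of the 38 in that line. In A375 PRPF4 stood at 185, 199 and 197 CPM in parental and 193, 179 and 176 CPM in resistant cells, with overlap and a value of -0.08 ± 0.06 (edgeR adjusted p = 0.313). CDC26, whose exons overlap 5.8% of those of PRPF4 on the opposite strand, fell by 0.43 on the log2 scale in CHL1 (edgeR adjusted p = 0.000613).

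Of the 6 U5 genes, which align the exon ends and unwind the other small nuclear RNAs, EFTUD2 rose in A375 and none was called in CHL1. EFTUD2, the GTPase that controls the unwinding step, stood at 264, 274 and 268 CPM in parental and 323, 308 and 302 CPM in resistant A375. All resistant libraries were higher, with a log2 fold change of 0.21 ± 0.05 (edgeR adjusted p = 0.0102). In CHL1 it stood at 293, 277 and 279.8 CPM in parental and 269, 268 and 267 CPM in resistant cells, lower in all 3 without a call (-0.08 ± 0.04, edgeR adjusted p = 0.193). DDX23, the helicase that helps replace U1 with U6 at the 5′ splice site, stood at 145, 150.1 and 148 CPM in parental and 166, 154 and 161 CPM in resistant A375. Its CHL1 levels were 199.9, 204 and 204 CPM and then 191, 197 and 194 CPM. The DDX23 groups did not overlap in either line, but neither value was called (0.12 ± 0.05 and -0.06 ± 0.04; edgeR adjusted p = 0.117 and 0.294).

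PRPF8, the protein at the heart of the catalytic centre, had 0.07 in A375 and -0.02 in CHL1. SNRNP200, the helicase that unwinds U4 from U6, had 0.06 and 0.02. PRPF6, the bridge between U5 and U4/U6, had 0.05 and -0.0009, and SNRNP40 had 0.08 and -0.11, all without a call. In the PRP19 complex, PRPF19, its ubiquitin ligase, fell in CHL1. It stood at 433, 407 and 439 CPM in parental and 343, 368 and 374.8 CPM in resistant CHL1, without overlap, a log2 fold change of -0.24 ± 0.05 (edgeR adjusted p = 0.00522). In A375 PRPF19 stood at 427, 459.6 and 429 CPM and then at 445, 443 and 414 CPM, with overlap and a value of -0.02 ± 0.05 (edgeR adjusted p = 0.851). Its partner CDC5L had -0.04 in A375 and 0.01 in CHL1, without a call.

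**Figure D2:**
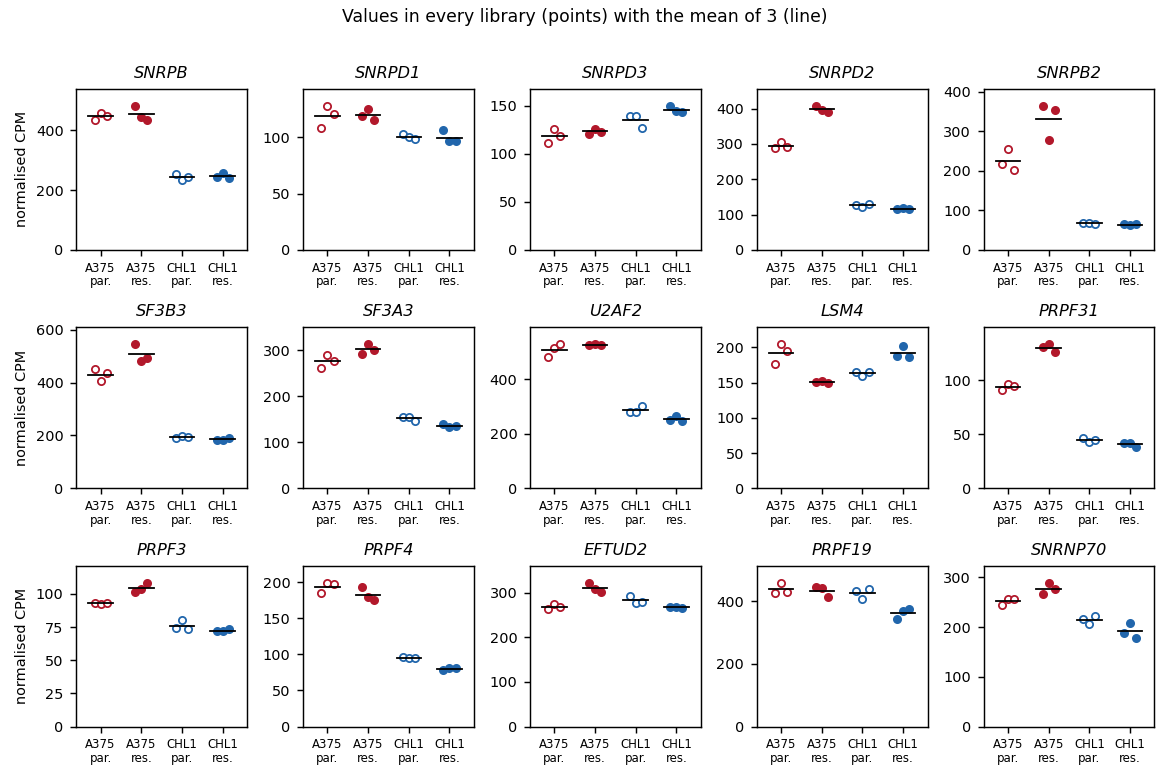
Normalised CPM (vertical axes, from 0, each line scaled within its own table) of 15 of the genes in every library, as open points for parental and filled points for resistant cells of A375 (red) and CHL1 (blue), with a line at the mean of 3. LSM4 is lower in resistant A375 (150.0 to 152 CPM) and higher in resistant CHL1 (187 to 202 CPM), while the SNRPB and SNRPD1 points of resistant and parental cells overlap in both lines.

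The next comparison asked whether the resistance effect itself differed between the lines, with all 12 libraries fitted together (interaction term, CHL1 effect minus A375 effect). It was called for 13 of 38 members (34.2%, against 23.6% of all genes). In 12 the effect was lower in CHL1 (31.6%, against 11.7%), and in LSM4 alone it was higher (2.63%, against 11.9%). Among genes of at least 10 CPM the share called was 31.1%, with 14.5% lower and 16.6% higher in CHL1. Values above 0 were found in 9 of 38 (23.7%, against 49.8%). The median over the 38 was -0.15, against -0.003 over all genes, and no member reached 2-fold, against 6.84%.

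The difference was largest for SNRPB2 (-0.62 ± 0.13, edgeR adjusted p = 0.00333), PRPF31 (-0.60 ± 0.08, adjusted p = 5.62e-05), LSM4 (0.59 ± 0.08, adjusted p = 9.25e-05) and SNRPD2 (-0.55 ± 0.06, adjusted p = 2.67e-05). SF3B3 (-0.30), SNRNP70 (-0.29), SF3A3 (-0.29) and EFTUD2 (-0.29) followed. These 8 kept their calls in all 18 alternative settings. PRPF3 (-0.23) and U2AF2 (-0.23), SF3B4 (-0.21), SF3A1 (-0.19) and DDX23 (-0.18) were called too, but lost their calls in 2, 5, 10, 7 and 12 of the 18 settings. Of the U2 genes 6 of 10 were among the 13, and of the Sm genes 1 of 7. SNRNP70, SF3A1, SF3B4 and DDX23 differed between the lines although none was called within a line: each had a value above 0 in A375 and below 0 in CHL1.

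For these later calls the library that mattered varied. PRPF3 was lost without CHL1 parental replicate 2 (adjusted p = 0.059). U2AF2 was lost without A375 parental replicate 1 (0.0642), A375 resistant replicate 1 (0.0544), CHL1 resistant replicate 1 (0.0644) or CHL1 resistant replicate 3 (0.0788). SF3A1 was lost without A375 parental replicate 3, A375 resistant replicate 1, CHL1 parental replicate 2 or any 1 CHL1 resistant library (adjusted p 0.0582 to 0.097). SF3B4 was lost without 8 of the 12 libraries taken singly (adjusted p up to 0.0971) and DDX23 without 10 of 12 (up to 0.126).

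In the parental cells the 38 genes differed widely between the lines, as did most genes. The 12-library fit called 33 of 38 (86.8%, against 75.6% of all genes and 83.6% of genes of at least 10 CPM). Of these 12 were higher in CHL1 (31.6%, against 37.4% of all genes and 45.1% of those of at least 10 CPM) and 21 higher in A375 (55.3%, against 38.2% and 38.4%). Values above 0, higher in CHL1, were found in 14 of 38 (36.8%, against 49.0%). The line and its table cannot be told apart. The difference reached 2-fold for 6 genes (15.8%, against 37.5%). A375 had the higher level of SNRPB2 (3.11-fold), PRPF6 (2.84-fold), SNRPD2 (2.17-fold), SF3B3 (2.06-fold) and SF3B4 (2.01-fold), and CHL1 that of LSM7 (2.08-fold). SNRPB2, SNRPD2, SF3B3 and PRPF31, which rose in resistant A375, were also higher in parental A375 than in parental CHL1, by 3.11-, 2.17-, 2.06- and 1.95-fold. Of the other two that rose, PRPF3 was higher in parental A375 (1.14-fold) and EFTUD2 in parental CHL1 (1.14-fold). SNRPD1, SNRPC, SNRNP70, LSM4 and PRPF19 were not called between the parental lines.

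Per kilobase of exon, which allows genes to be set side by side, the levels ran over a wide range within single particles. For these levels CPM were scaled over all 12 libraries together, not within the line. In parental A375, SNRPB had the highest level of the 38, at 336 ± 8.71 CPM per kb (SD, n = 3), and LSM6 the lowest, at 5.30 ± 0.649. Within the Sm ring, whose subunits occur once each, levels ran from 23.4 ± 1.87 CPM per kb for SNRPD1 to the SNRPB value. In parental CHL1, SNRPB stood at 198 ± 8.49, PRPF19 at 162 ± 7.41 and LSM6 at 3.94 ± 0.0615 CPM per kb. Lengths are unions of annotated exons, so a gene with long alternative ends gets a lower value. For SNRPD1 that union is 4909 bases, against 1278 for SNRPB.

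**Figure D3:**
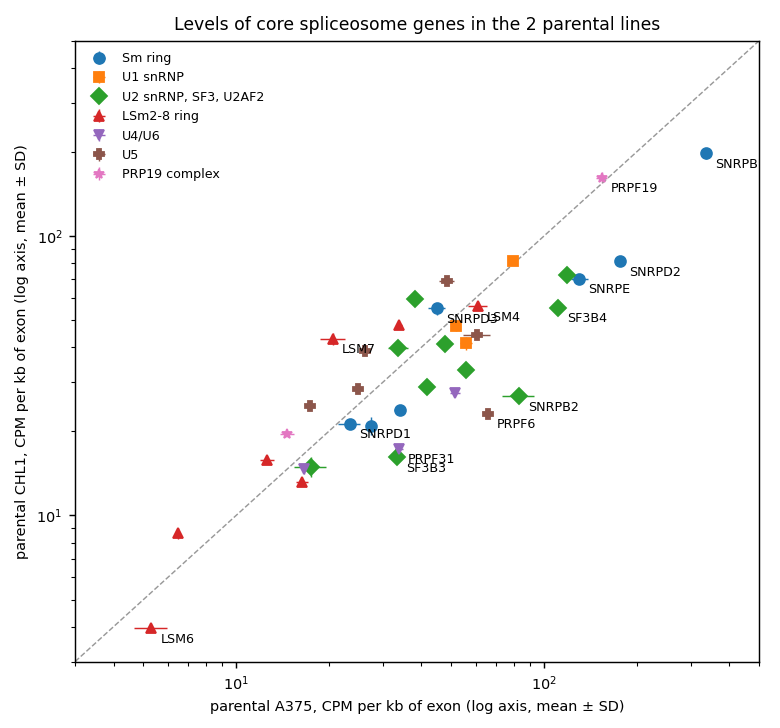
Mean level per kilobase of exon (CPM per kb, normalised over all 12 libraries, log axes, bars of SD over 3 libraries) of each of the 38 genes in parental A375 (horizontal) and parental CHL1 (vertical), marked by particle, with a dashed line of equality. SNRPB is at the upper end in both lines (336 in A375 and 198 in CHL1) and LSM6 at the lower (5.30 and 3.94), and SNRPB2 and PRPF6 lie farthest below the line.

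Because a stretch of chromosome can move together, each member was set beside its 20 nearest expressed genes. Chromosome 19 holds 8 of the 38 genes. In resistant A375 the neighbours of LSM4 there had a median log2 fold change of -0.36, with 13 of 20 called, beside -0.35 for LSM4. The neighbours of SNRPD2 had 0.32 (12 of 20 called) beside 0.43, and those of PRPF31 had 0.34 (17 of 20 called) beside 0.47. In contrast the neighbours of SNRPB2 had 0.02, of SF3B3 -0.03, of PRPF3 0.02 and of EFTUD2 0.07, so these 4 rose beside neighbours near 0. U2AF2 was the reverse: its neighbours had 0.52, with 16 of 20 called, beside an uncalled 0.05 for the gene. Among other uncalled members, SNRNP70 had 0.14 beside neighbours at 0.28 (11 of 20 called). SNRPA had 0.14 beside 0.26, and LSM2 had -0.12 beside 0.22. Of the 38 members, 7 had an A375 neighbour median of at least 0.2 in size, and SNRPD2, LSM4 and PRPF31 were among them. The other 4 of the 7 A375 calls were in members below that size.

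In CHL1 the rise of LSM4 stood beside a neighbour median of 0.001, with 2 of 20 called, and the fall of PRPF19 beside one of 0.15. PRPF4 had -0.26 beside -0.23 for its neighbours (11 of 20 called), U2AF2 had -0.19 beside -0.20, and SF3A3 -0.16 beside -0.10. The neighbours of LSM3 had a median of -0.34 in CHL1, with 17 of 20 called, beside an uncalled -0.15. PRPF31 had an uncalled -0.13 beside -0.20 for its neighbours (9 of 20 called). Also uncalled, SNRPD2 had -0.11 beside -0.17 (2 of 20) and SNRNP70 had -0.16 beside -0.09 (4 of 20). The part of neighbouring genes in the values of the members was not tested.

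**Figure D4:**
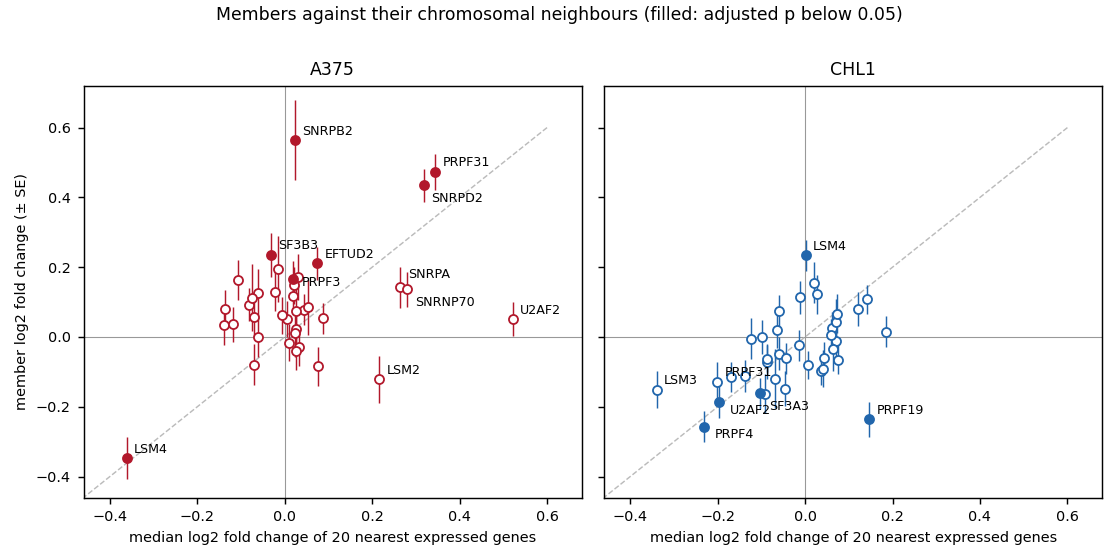
Log2 fold change ± SE of each of the 38 genes (vertical axis) against the median of its 20 nearest expressed genes (horizontal axis; 13 for SNRPA1 and 15 for PRPF6) in A375 and CHL1, filled for adjusted p below 0.05, with a dashed line of equality. In A375, LSM4, SNRPD2 and PRPF31 lie near the line and SNRPB2 well above neighbours at 0.02, and in CHL1 LSM4 and PRPF19 lie away from it.

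Promoters of members were read from RefSeq (GRCh38.p14), which had an entry for 34 of the 38. The 250 bases before the start are printed 5′ to 3′ on the gene's strand for the genes with the highest value in A375 outside a moving neighbourhood (SNRPB2), with the smallest adjusted p in A375 (SNRPD2, equal to that of PRPF31) and with opposite calls (LSM4). Capitals mark the letters CCGGAAG of ETS factors, CCAAT and the GC box GGGCGG, on either strand.

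SNRPB2, chr20:16729776-16730025 (+ strand): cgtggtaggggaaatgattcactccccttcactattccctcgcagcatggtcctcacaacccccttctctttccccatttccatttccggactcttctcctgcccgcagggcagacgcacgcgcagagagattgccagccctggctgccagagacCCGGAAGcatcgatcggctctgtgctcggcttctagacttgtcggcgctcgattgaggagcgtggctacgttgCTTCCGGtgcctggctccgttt

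SNRPD2, chr19:45692317-45692566 (- strand): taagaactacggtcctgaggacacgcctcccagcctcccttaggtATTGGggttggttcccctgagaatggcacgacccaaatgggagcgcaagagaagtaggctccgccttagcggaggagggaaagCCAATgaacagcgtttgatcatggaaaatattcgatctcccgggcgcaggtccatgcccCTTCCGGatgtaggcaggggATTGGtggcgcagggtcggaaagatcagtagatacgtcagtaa

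LSM4, chr19:18323077-18323326 (- strand): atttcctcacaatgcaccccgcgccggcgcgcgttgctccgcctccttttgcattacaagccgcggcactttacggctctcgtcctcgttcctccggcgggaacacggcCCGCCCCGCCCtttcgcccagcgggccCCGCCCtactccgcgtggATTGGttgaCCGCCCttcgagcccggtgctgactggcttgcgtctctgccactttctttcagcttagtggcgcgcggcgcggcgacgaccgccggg

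SNRPB2 holds ETS letters that begin 95 and 22 bases before the start, SNRPD2 holds them at 63 bases with CCAAT at 205, 122 and 43, and LSM4 holds none of them but a CCAAT at 96 and 4 GC boxes. The shares that follow were counted over whole promoter entries, which are longer than the printed bases. SNRPD2, for one, counts for GGGCGG, which its printed bases lack. The ETS letters were in 17 of the 34 promoters (50.0%), against 10.3% of all 35116 entries and 12.8% of 22199 of protein-coding genes. Against protein-coding genes, GGGCGG was in 21 (61.8%, against 56.3%), CCAAT in 13 (38.2%, against 34.7%) and AAGATGGC in 5 (14.7%, against 3.53%). TATAAA was in 1 (2.94%, against 9.47%), CACGTG in 2 (5.88%, against 8.34%) and the NRF1 motif in 1 (2.94%, against 1.5%). These motifs were chosen after values were seen, and a match of letters describes the sequence only. Of the 6 genes that rose in A375, 4 had an entry, and 2 of those (SNRPD2 and SNRPB2) held the ETS letters. Of the 4 that fell in CHL1, 2 held them (SF3A3 and U2AF2).

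PRMT5 itself and the machinery that assembles snRNPs were then examined. PRMT5 stood at 131 ± 7.56 CPM in parental and 143 ± 0.804 CPM in resistant A375 (SD, n = 3; log2 fold change 0.13, edgeR adjusted p = 0.124). In CHL1 it stood at 104.5 ± 2.52 and 108 ± 1.68 CPM (0.05, edgeR adjusted p = 0.492). WDR77, its obligate partner, fell in CHL1 from 107.6 ± 3.42 to 89.5 ± 1.30 CPM (-0.27, edgeR adjusted p = 0.00136) and had -0.06 in A375 (adjusted p = 0.577). CLNS1A, which brings Sm proteins to PRMT5, rose in CHL1 by 0.16 (edgeR adjusted p = 0.0321) and had -0.04 in A375 (adjusted p = 0.646). Of the 23 genes of this list, 2 rose and 1 fell in A375 (13% called, against 28.3% of all genes; median 0.003), and 2 rose and 4 fell in CHL1 (26.1%, against 21.2%; median -0.04). NCBP1 and NCBP2, the cap-binding pair that takes part in the export of small nuclear RNAs, fell in CHL1 by 0.41 and 0.26, and in A375 NCBP1 rose (0.20) and NCBP2 fell (-0.25). GEMIN7, of the SMN complex, rose in A375 (0.44) and fell in CHL1 (-0.34).

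Other proteins of the particles are given beside the same shares of all genes, 28.3% in A375 and 21.2% in CHL1. Among 21 further U1 and U2 proteins, 2 rose and 5 fell in A375 (33.3% called, median 0.06) and 2 fell in CHL1 (9.52%, median -0.01). HTATSF1, a U2-binding factor, fell in A375 from 121 ± 6.92 to 63.3 ± 1.26 CPM (SD, n = 3; log2 fold change -0.94, edgeR adjusted p = 1.6e-05), a larger value than that of any of the 38. SF1, which marks the branch point before U2, fell in A375 (-0.30), as did SMNDC1 (-0.33), and U2SURP (-0.41) and DNAJC8 (-0.20) fell in CHL1. Among 15 further tri-snRNP proteins, 2 were called in A375 (13.3%) and 3 of 15 in CHL1. WBP4 fell (-0.58) and SART3, which anneals U4 with U6, rose (0.18) in A375. In CHL1, CD2BP2 (0.18) and USP39 (0.15) rose and PRPF38A fell (-0.28).

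Among 21 proteins of the PRP19-related and catalytic groups, 3 rose in A375 (14.3%; CTNNBL1 by 0.35, CWC27 by 0.27 and XAB2 by 0.21). In CHL1, 2 rose (PPIL1 by 0.23 and SNW1 by 0.20) and ISY1 fell (-0.33), also 14.3%. Of 8 Sm and LSm relatives, LSM14A (0.33) and NAA38 (0.31) rose in A375 and SNRPN, the SNRPB paralog, rose in CHL1 from 1.51 ± 0.249 to 2.90 ± 0.466 CPM. Whether reads of SNRPN and SNRPB could be told apart was not tested, and the SNRPN value is uncertain for that reason. Of 8 minor spliceosome proteins, none was called in A375 and ZMAT5 rose in CHL1 (0.30), and of 5 exon junction proteins tested none was called in either line. Of 10 proliferation genes, 3 were called in A375, near the share of all genes (28.3%), of which TYMS (0.32) and AURKA (0.26) rose and MKI67 fell (-0.49). In CHL1, 4 of 10 were called, against 21.2% of all genes and 27.3% of genes of at least 10 CPM. There 3 rose, among them BUB1 (0.23) and TOP2A (0.30), and MCM2 fell (-0.37).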

How the data were processed

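The authors deposited, per the file headers and values, 1 table of raw read counts per Ensembl gene for each line, with 6 libraries each. Tools in the submitters' processing notes are HTSeq 0.5, TopHat2, cutadapt 1.7, CASAVA 1.8.2 and limma. For the genome build and annotation, none is given in the sources used here. Per the labels' protocols the kit was TruSeq RNA v2. It does not mark the strand, so reads from overlapping genes cannot be told apart by strand. How such reads were counted was not examined.

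Symbols came from a table of gene names and GENCODE 29, which also gave gene order, exon lengths and coding sequences. The members and lists were chosen with earlier results of these data known. Groups came from the labels. Each line was fitted with edgeR 4.0.16 (R 4.3.3; TMM, filterByExpr with a minimum count of 10, quasi-likelihood F-test, two-sided, Benjamini-Hochberg over the 18086 genes tested in A375 and 17219 in CHL1). A fit of 12 libraries and 19241 genes gave the interaction and the parental comparison. The SE is the absolute log2 fold change over the square root of F. All 38 members passed the filter in every fit. A floor of 3 counts stands for 0.101 to 0.118 CPM, which covers counting error only. Replicate libraries differed by more than sampling noise (chi-square per gene 5.66 to 16.9). The fits were tested on simulated data. Alternatives were DESeq2 1.42.0, limma 3.58.1 (voom), RLE size factors, other filters, the replicate number as a block and each library left out.

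Values in every library are given for SNRPB, SNRPD1, SNRPD3 and LSM4, for members called in both lines or between lines, and for up to 6 called members per line with the smallest adjusted p. Other called members get a log2 fold change and adjusted p, and the rest a range. In other lists up to 3 genes with the smallest adjusted p per line are named, at times with the value in the other line, and PRMT5, WDR77 and CLNS1A always. TFPT, CDC26, the cell type markers and the uncalled members given singly were named for completeness or after their values were seen.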

Additional observations from a re-analysis of the deposited data

Results flagged for a closer look

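The resistance effect differed between CHL1 and A375, by the interaction term of the edgeR fit, for 13 genes. The differences on the log2 scale (CHL1 minus A375) were -0.55 for SNRPD2, -0.29 for SNRNP70, -0.62 for SNRPB2, -0.19 for SF3A1, -0.29 for SF3A3, -0.30 for SF3B3, -0.21 for SF3B4, -0.23 for U2AF2, -0.23 for PRPF3, -0.60 for PRPF31, -0.29 for EFTUD2 and -0.18 for DDX23. For LSM4 the difference was 0.59, the only one above 0.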

How the results depend on the processing

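The A375 count of 7 called members was 7 with DESeq2, limma-voom, RLE size factors and a filter of 1 CPM, 6 without a filter on low counts, and 5 to 6 when each library was left out in turn. It was 4 when only members with neighbour medians under 0.2 were counted, which drops SNRPD2, LSM4 and PRPF31 by construction. The CHL1 count of 5 was 5 with DESeq2, limma-voom and RLE, 7 without a filter on low counts (adding SNRNP70 and SF3A2), 7 with a filter of 1 CPM (adding SNRPF and SNRNP70) and 4 to 6 with each library left out, and without CHL1 resistant replicate 3 the calls were 2 higher and 2 lower. The CHL1 median of -0.0544 ran from -0.0599 (without resistant replicate 1) to -0.0346 (without resistant replicate 3), and that of A375 from 0.0559 to 0.0976. The 13 calls between lines were 15 with DESeq2, limma-voom and RLE, 17 with a filter of 1 CPM, 9 to 16 with a library left out and 8 without a filter on low counts, which lost SF3A1, SF3B4, U2AF2, PRPF3 and DDX23; the cause was not tested. The 33 calls between parental lines ran from 32 to 35 with a library left out and reached 36 with a filter of 1 CPM. No value that was checked reversed its sign past the threshold in any setting. Checked were the called members of each line and of the interaction, and SNRPB, SNRPD1 and SNRPD3 in each line. The parental comparison was not checked.

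Replicate numbers are shared between groups, but same-numbered samples did not all deviate together: the correlations of their deviations were 0.263, 0.274 and -0.007 in A375 and 0.146, 0.007 and 0.033 in CHL1, and not every sample correlated best with its own number. With the replicate number as a block, 13 members were called in A375 (adding SNRNP70, SNRPA1, SF3A2, SF3A3, SF3B4 and LSM8) and 8 in CHL1 (adding SNRPF, SNRNP70 and SF3A2). The interaction had 11 calls with the block. Over all genes the block raised the calls from 5111 to 6307 in A375 and from 3645 to 4305 in CHL1. At this depth the SE of the uncalled members had a median of 0.06 in A375 and 0.05 in CHL1 on the log2 scale, which limits how small a difference could be called.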
